A study of Mus musculus with 10 samples.

Results

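Expression of 48 genes that make, carry, receive or modify Wnt signals was compared between Wnt9b genotypes in the mouse embryonic urogenital system. The set holds 14 Wnt ligands, 10 Frizzled receptors, 6 co-receptors or alternative receptors, 9 secreted inhibitors, 7 R-spondins and R-spondin receptors, and 2 genes of ligand processing and secretion. Its members were listed by gene name, and every probe set whose platform annotation gives 1 gene symbol, equal to such a name, was taken. All 48 names were found, with 94 of the 45037 probe sets on the array that are not Affymetrix controls. The brightest probe set on average stood for its gene, so the set makes up 48 of 18193 named genes.

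The samples were urogenital systems dissected at embryonic day 15.5, when kidneys, gonads, reproductive ducts, adrenal glands and bladder develop side by side. Biotin-labelled cRNA from pools of 1 to 2 urogenital systems was hybridized to 10 Affymetrix arrays, 5 for each genotype. The first group, called homozygous here, carried the Wnt9b cneo allele on both chromosomes (genotype label Wnt9bcneo/cneo). The other group, called control here, has the genotype label Wnt9bcneo/+ while its sample titles say WT, and these readings cannot be told apart. How the cneo allele alters Wnt9b is not stated in the labels. Nor do they tie pools to litters, and p-values here cover only how pools vary. In RNA from whole organs, fewer cells of a type and less RNA per cell cannot be told apart.

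Wnt proteins are lipid-modified ligands that act over short distances. The enzyme Porcn attaches the lipid, and the carrier Wls brings the ligand to the cell surface. On a receiving cell a Frizzled protein and Lrp5 or Lrp6 bind the ligand and stabilize beta-catenin, while Ror1, Ror2 and Ryk serve branches that do not need beta-catenin. Sfrp proteins, Frzb and Wif1 bind the ligand itself, and some Dkk proteins bind Lrp5 and Lrp6 and act together with Kremen1. R-spondins act through Lgr4, Lgr5 and Lgr6 to keep Frizzled receptors on the membrane. In the developing kidney, Wnt9b from the ureteric bud signals to nephron progenitors.

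None of the 48 members passed the threshold between the genotypes (limma, Benjamini-Hochberg adjusted p under 0.05 over all 18193 genes), against 0.967% of all genes (0.539% higher and 0.429% lower in homozygous pools). At an unadjusted p under 0.05 there were 8 members, 3 with a positive and 5 with a negative difference, which is 16.7% of the set against 15.7% of all genes tested (9.83% positive and 5.89% negative). Homozygous and control pools did not overlap in 2 members, 4.17% of the set against 4.71% of all genes (2.61% higher and 2.1% lower). These were Wnt5b, with every homozygous pool above every control pool, and Lgr4, with every homozygous pool below. The median log2 difference was 0.044 over the members and 0.000 over all genes, and 28 of the members (58.3%) had a positive difference, against 53.9% of all genes. Taken over both directions, these shares lie near those of all genes. By direction, members at an unadjusted p under 0.05 were more often negative than positive, the reverse of all genes, but they are few.

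The 176 genes called over the whole array comprised 98 higher and 78 lower in homozygous pools; with arrays centred on their medians the split was 146 and 60. Single pools moved this total: leaving out homozygous pools 1, 3, 4 and 5 in turn left 11, 3, 67 and 13 genes. Leaving out control pools 1 to 5 left 13, 414, 3, 10 and 5. With homozygous pool 2 left out the total lay within this range of 3 to 414, and 64.8% of the called genes were higher in homozygous pools. The share of probe sets at or under the intensity floor of 16 was 19.9% to 21.1% for the homozygous genotype and 22.2% to 23.0% for the control. Homozygous pool 5 and control pool 1 stood apart in their actin ratio (3' probe set over the middle one), at 97.7 and 94.8 against 9.87 to 33.1 on the other 8 arrays. In the same ratio for Gapdh only control pool 1 stood apart, at 68.7. Homozygous pool 5, at 43.4, lay there within the 22.1 to 50.5 of the other 8 arrays. The transcript Xist was at 13.75 to 14.27 (log2) in homozygous pools 3, 4 and 5 and at 5.13 to 6.07 in the other 7 pools. All Xist-high pools were homozygous, so whatever sets the Xist level cannot be fully told apart from genotype. Of 15 marker lists for the cell types of the dissected region, 2 held genes past the threshold: 7 of 10 proximal tubule genes fell and 2 of 8 macrophage genes rose. The widest median difference, 2.73, was that of the 13 sympathetic neuron and chromaffin genes, of which 12 had a positive difference at an unadjusted p under 0.05 and none passed (smallest adjusted p = 0.0558, limma). The mean of that list was 9.05 to 10.42 (log2) in homozygous and 5.99 to 8.66 in control pools, with no overlap. The 7 Sertoli and Leydig cell genes, some of which touched the floor, split the pools within both groups. Their mean was 8.87 and 9.44 in homozygous pools 1 and 2 and 9.16 and 9.15 in control pools 3 and 5. It was 5.59 to 6.18 in the other pools, among them the Xist-low control pools 1, 2 and 4.

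**Figure D1:**
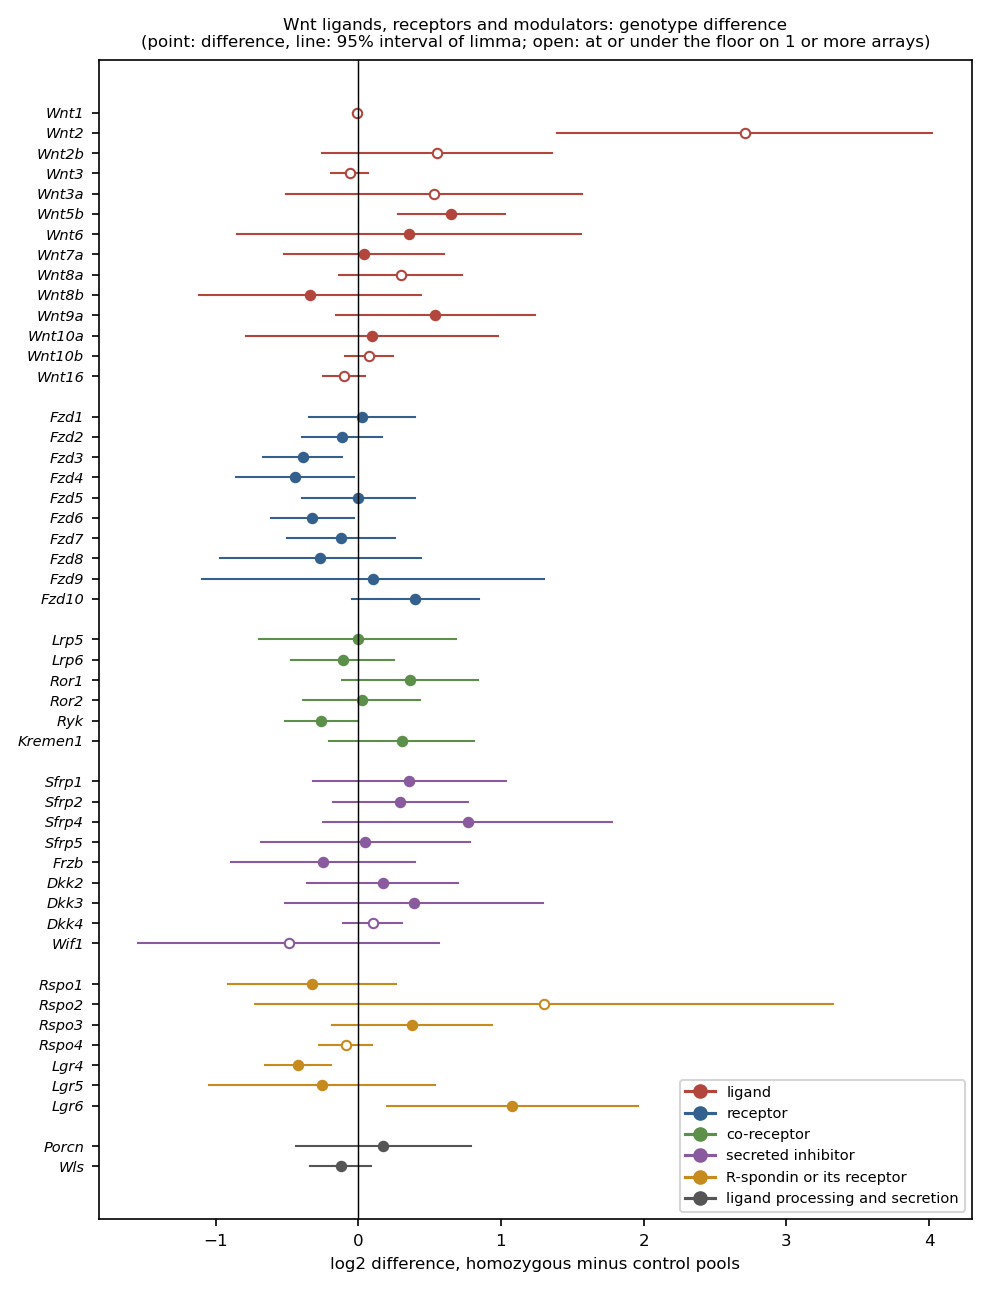
Log2 difference between homozygous and control pools for the 48 members, grouped by role, on the horizontal axis; lines are 95% intervals from limma over 5 pools a group, and open points mark members at or under the floor of 16 on 1 or more arrays. Most members lie within 0.5 of 0, while Wnt2 (2.71), Rspo2 (1.30) and Lgr6 (1.08) lie farthest to the right.

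The upstream sequence of the 3 members with the smallest unadjusted p, Wnt2, Lgr4 and Wnt5b, is shown for reference beside their values. Each run is the 250 bases before a transcription start in RefSeq (GRCm38.p6), written 5′ to 3′ on the strand of the gene. Capitals mark the 6-letter core CTTTGA, or its reverse complement TCAAAG, which is recognised by the TCF and LEF factors that act with beta-catenin. The Wnt2 window is chr6:18030446-18030695 on the minus strand, the Lgr4 window is chr2:109917397-109917646 on the plus strand, and the Wnt5b window is chr6:119449387-119449636 on the minus strand, 1 of 3 RefSeq starts of that gene.
Wnt2: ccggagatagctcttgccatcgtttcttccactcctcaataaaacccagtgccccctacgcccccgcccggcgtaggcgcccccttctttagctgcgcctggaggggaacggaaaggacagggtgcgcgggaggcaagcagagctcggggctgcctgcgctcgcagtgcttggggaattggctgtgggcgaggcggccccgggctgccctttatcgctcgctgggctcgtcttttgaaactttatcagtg
Lgr4: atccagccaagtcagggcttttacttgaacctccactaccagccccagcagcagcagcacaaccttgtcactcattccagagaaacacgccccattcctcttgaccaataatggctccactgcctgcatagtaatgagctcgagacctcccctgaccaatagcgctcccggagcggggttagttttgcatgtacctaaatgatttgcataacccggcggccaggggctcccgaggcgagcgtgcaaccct
Wnt5b: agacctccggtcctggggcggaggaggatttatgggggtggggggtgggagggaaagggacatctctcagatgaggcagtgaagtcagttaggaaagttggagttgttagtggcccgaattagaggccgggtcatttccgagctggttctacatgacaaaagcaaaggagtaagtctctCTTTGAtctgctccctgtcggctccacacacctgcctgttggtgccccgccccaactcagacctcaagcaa

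Of these windows only that of Wnt5b held the core, 71 bases before the start, and the windows of its other 2 starts held none. RefSeq promoter entries were at hand for 31 of the 48 members, in 33 windows. The core stood in 4 of the 33 windows (12.1%), those of Wnt5b, Frzb, Fzd1 and Ror1, against 13.8% of all 32851 windows of the same length. A match describes the letters alone.

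Among the 14 ligands, 10 had a positive difference (71.4%, against 53.9% of all genes) and none passed the threshold. Wnt2 (GRCm38.p6, chromosome 6, 17985474 to 18032772), a ligand of embryonic mesenchyme, showed the widest separation of means. Its intensity was 418, 107, 204, 290 and 310 in homozygous pools 1 to 5 and 26.1, 132, 40.8, 30.6 and 9.0 in control pools 1 to 5. Homozygous pool 2 was thus below control pool 2, and all other homozygous pools were above all control pools. Mean log2 intensities were 7.92 ± 0.76 for homozygous and 5.21 ± 1.14 for control (SD, 5 pools each). They differed by 2.71 ± 0.58 (SE; 95% interval 1.39 to 4.02), a 6.53-fold higher mean that is understated because control pool 5 lay under the floor. Its limma adjusted p was 0.0674, so the call was not made. Without control pool 2 the difference was 3.17 and passed (adjusted p = 0.0207), and over all 23 alternatives for this gene the adjusted p ran from 0.0207 to 0.498, with 5 under the threshold.

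Smooth muscle markers were highest and lowest in some of the same pools. The mean of the 8 smooth muscle genes listed (Acta2, Tagln, Myh11, Cnn1, Actg2, Des, Smtn and Myocd) was 11.19, 8.64, 10.31, 10.15 and 9.75 (log2) in homozygous pools 1 to 5 and 7.63, 9.88, 8.10, 8.54 and 7.84 in control pools 1 to 5. In both measures homozygous pool 1 was the highest and homozygous pool 2 the lowest of its group, and control pool 2 was the highest control. The summed intensity of the list ran from 13415 to 43865 in homozygous and from 8594 to 26379 in control pools. All 8 genes were above the floor on every array and had a positive difference, none past the threshold. The sympathetic neuron list, too, had its highest control value in pool 2 (8.66), and its difference in means (2.44) was wider than that of smooth muscle (1.61). Its summed intensity ran from 8300 to 21223 and from 1506 to 6055, and 3 of its 13 genes touched the floor on a control array. The Schwann cell (8.43) and urothelium (9.36) lists also had their highest control value in pool 2. In the urothelium list homozygous pool 1 was the highest of its group (8.94), but pool 3 was the lowest (7.59). The part of any of these tissues in the Wnt2 difference was not tested.

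**Figure D2:**
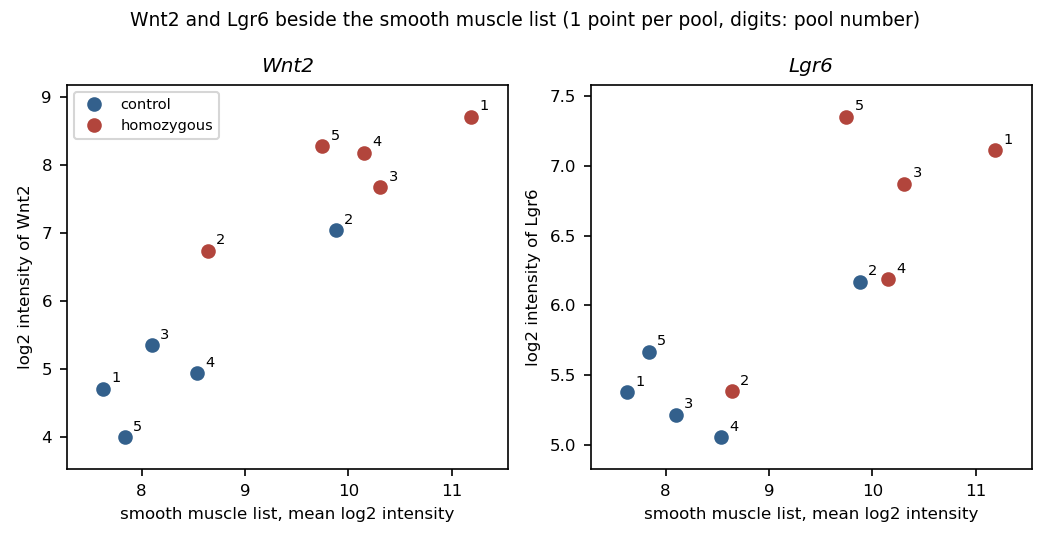
Log2 intensity of Wnt2 (left) and Lgr6 (right) on the vertical axes against the mean log2 intensity of the 8 smooth muscle genes in the same pool, 1 point per pool with its pool number, red for homozygous and blue for control. Homozygous pool 2 (8.64 on the horizontal axis) lies among the control pools in Lgr6, and control pool 2 (9.88) lies beside the homozygous pools in both panels.

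Wnt5b (chromosome 6, 119432531 to 119544824), a ligand known mainly for signalling without beta-catenin, separated the genotypes. Homozygous pools 1 to 5 had intensities of 319, 258, 316, 227 and 284, and control pools 1 to 5 had 204, 191, 134, 157 and 213. The lowest homozygous pool was therefore above the highest control pool by a small margin. The difference was 0.65 ± 0.17 on the log2 scale (SE; 1.57-fold), with a limma adjusted p of 0.0970. A second, dimmer probe set of Wnt5b differed by -0.36 ± 0.37, and the mean of both probe sets by 0.15 (adjusted p = 0.762). The brighter one has the suffix by which Affymetrix marks probe sets with probes that may cross-hybridize with other, also unrelated, sequences.

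Wnt9a, the closest relative of Wnt9b among the Wnt genes, was measured at 294, 237, 337, 302 and 192 in homozygous pools and at 89.3, 286, 190, 231 and 188 in control pools. The groups overlapped, and the log2 difference was 0.54 ± 0.31 (95% interval -0.16 to 1.24). Wnt6, a ligand of the ureteric epithelium, was singled out after its values were seen. It was at 346.5, 381, 103, 180 and 183 in homozygous and at 86.0, 162.5, 345, 84.3 and 319 in control pools. Its 2 probe sets differed by 0.36 and 0.38, each with a standard error above 0.5. Homozygous pools 1 and 2 and control pools 3 and 5 were the highest. These pools also had the highest means of the Sertoli and Leydig cell list. The part of gonad content in the Wnt6 values was not tested. The remaining ligands above the floor on all arrays were Wnt7a (0.04), Wnt8b (-0.34) and Wnt10a (0.10).

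The other 7 ligands besides Wnt2 that touched the floor were Wnt1, Wnt2b, Wnt3, Wnt3a, Wnt8a, Wnt10b and Wnt16. Of these, Wnt1, Wnt3, Wnt10b and Wnt16 lay at or under the floor on 6 or more of 10 arrays, so their differences, from -0.10 to 0.08, are set by the floor. Wnt2b, Wnt3a and Wnt8a had differences of 0.55, 0.53 and 0.30 with standard errors of 0.36, 0.46 and 0.19. At this signal the floor limits what can be said of these ligands, of a fall most of all, and none of them passed the threshold.

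All 10 Frizzled receptor genes were above the floor on every array, 6 with a negative and 4 with a positive difference, and none passed the threshold. Those at an unadjusted p under 0.05 were Fzd3, Fzd4 and Fzd6, all with lower means in homozygous pools. Of all genes, 5.89% had an unadjusted p under 0.05 with a negative difference.

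Fzd3, a receptor known for its part in axon guidance and planar cell polarity, had intensities of 1521, 1566, 1357, 1729 and 1152 in homozygous pools and 2087, 1591, 2157, 1873 and 1848 in control pools. Only control pool 2 lay within the homozygous range. The log2 difference was -0.39 ± 0.12 (95% interval -0.67 to -0.11; adjusted p = 0.161 in limma). Its probe sets pointed one way: the 3 dimmer ones that were above the floor throughout differed by -0.37, -0.15 and -0.34.

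Fzd6, related to Fzd3 and likewise tied to planar cell polarity, was at 765, 950, 569, 658 and 644 in homozygous pools and at 866, 965, 851, 875 and 860 in control pools. Homozygous pool 2 alone reached the control range, which was narrow. The difference was -0.32 ± 0.13 (adjusted p = 0.265, limma). A dimmer Fzd6 probe set that touched the floor differed by 0.79 ± 0.35. Fzd4, the receptor for Norrin as well as Wnt ligands, was singled out after its values were seen. Its intensity was 1354, 1525, 1551, 1483 and 929 in homozygous pools against 2149, 1295, 2049, 2023 and 1778 in control pools. Control pool 2 was again the exception, below 4 of the homozygous pools. Its difference was -0.44 ± 0.18 (adjusted p = 0.281, limma), and a second probe set differed by -0.39 ± 0.14. The mean of the 10 nephron progenitor genes was also lowest among controls in pool 2 (9.44, against 9.97 to 10.28 in the other 4) and was 9.07 to 9.60 in homozygous pools. Of these genes 9 had a negative difference, none past the threshold, and 1 touched the floor, and their summed intensity ran from 10549 to 13742 in homozygous and from 13343 to 26147 in control pools. Pool 2 was also the lowest control in the proximal tubule (9.19), Muellerian and Wolffian duct (8.66) and Sertoli and Leydig cell (5.59) lists. The order of homozygous pools was not shared: pool 3 was highest in Fzd4 but lowest in the progenitor list (9.07). The part of any of these tissues in the Fzd3 and Fzd4 differences was not tested.

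**Figure D3:**
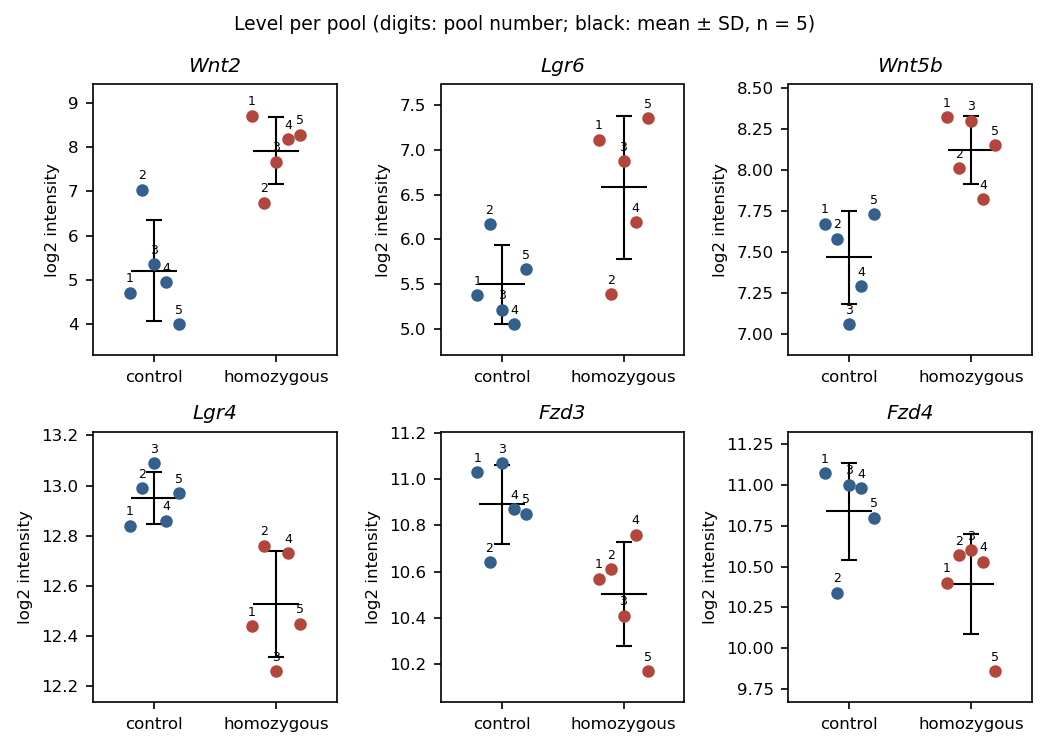
Log2 intensity of 6 members in each pool, control pools in blue and homozygous pools in red, with the pool number beside each point and the mean ± SD (n = 5) in black. The groups do not overlap for Wnt5b and Lgr4; in Wnt2, Fzd3 and Fzd4 control pool 2 lies with the homozygous pools, and in Lgr6 homozygous pool 2 lies with the control pools.

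Receptors with more abundant signal differed little. Fzd1 was at 5742, 5532, 6243, 6983 and 9842 in homozygous and at 7549, 7528, 6529, 5924 and 5687 in control pools. Its difference was 0.02 ± 0.17, with a 95% interval of -0.35 to 0.40. Fzd7, a close relative of Fzd1 and Fzd2, was at 2646, 3072, 2739, 3525 and 4753 in homozygous and at 4451, 3495, 3298, 3410 and 3245 in control pools. Homozygous pool 5 and control pool 1, the arrays of high actin ratio, were the highest of their groups in Fzd7, and its difference of -0.12 ± 0.17 had an interval of -0.50 to 0.26. For Fzd2, Fzd5, Fzd8, Fzd9 and Fzd10 the differences were -0.11, 0.001, -0.27, 0.10 and 0.40. For the brightest probe set of each, the 95% interval excluded a 2-fold change either way for 9 of the 10 receptors, Fzd9 being the exception. The dimmer Fzd2 probe sets, above the floor on all arrays, differed by -0.16 and 0.39. The interval of the latter, -0.429 to 1.215, did not exclude a 2-fold change.

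The 6 co-receptors and alternative receptors had 3 positive and 3 negative differences. For the brightest probe set of each, the interval excluded a 2-fold change. Ryk, a kinase-like Wnt receptor, was at 1719, 1503, 1589, 1889 and 1189 in homozygous pools and at 1732, 1911, 1944, 1816 and 1928 in control pools. Homozygous pool 4 lay within the control range and the other 4 homozygous pools lay below it. The log2 difference was -0.26 ± 0.11 (adjusted p = 0.315, limma), and its dimmer probe sets differed by -0.69 and -0.27.

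Ror1, a receptor tyrosine kinase that binds Wnt5a, was measured at 1499, 1255, 2100, 2092 and 1519 in homozygous and at 941, 1822, 1220, 1528 and 1122 in control pools. The groups overlapped widely, with a difference of 0.36 ± 0.21. Lrp6, the main co-receptor of the beta-catenin branch, had 2226, 2733, 2665, 3038 and 3762 against 4171, 2736, 2926, 2731 and 2976. Its difference was -0.11 ± 0.16 (95% interval -0.47 to 0.25), and the arrays of high actin ratio were again the highest of each group. A second Lrp6 probe set, above the floor on all arrays, differed by -0.51 ± 0.20 (unadjusted p = 0.0331, adjusted p = 0.352 in limma over all probe sets). Ror2 differed by 0.02 ± 0.18 in its brightest probe set and by -0.46 ± 0.28 in a second one above the floor throughout, whose interval of -1.09 to 0.16 did not exclude a 2-fold change. Lrp5 (-0.004) and Kremen1 (0.30) complete this class.

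Secreted inhibitors had 7 positive and 2 negative differences (77.8% positive, against 53.9% of all genes), with no unadjusted p under 0.05. Sfrp2, a ligand-binding inhibitor of mesenchyme and early nephrons, had intensities of 8760, 6336, 10193, 9788 and 6677 in homozygous and 6577, 9774, 4989, 7441 and 5613 in control pools. The ranges overlapped widely, and the difference was 0.29 ± 0.21. Sfrp4, another ligand-binding inhibitor, was at 364, 355, 311, 288 and 247 in homozygous pools, a narrow range, and at 174, 61.5, 160, 381 and 305 in control pools. Control pools 1, 2 and 3 lay below all homozygous pools, and the difference was 0.77 ± 0.45 (95% interval -0.24 to 1.78).

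The Sfrp1 gene (chromosome 8, 23411383 to 23449632), which encodes an inhibitor that binds Wnt ligands, gave readings that depended on the probe set. The brightest of its 5 probe sets was at 4598, 5105, 2562, 2646 and 1935 in homozygous and at 1597, 2417, 3139, 2514 and 2927 in control pools. Homozygous pools 1 and 2 were above all others, followed by control pools 3 and 5, and the difference was 0.36 ± 0.30. As with Wnt6, these were the pools with the highest means of the Sertoli and Leydig cell list. The part of gonad content in these values was not tested. The next brightest probe set was at 331, 339, 2242, 2314 and 217 in homozygous pools and at 1148, 1858, 2548, 2207 and 2636 in control pools. In homozygous pools 1, 2 and 5 it was thus far below every other pool, while homozygous pools 3 and 4 lay within the control range. Its difference was -1.59 ± 0.73 (unadjusted p = 0.0576, adjusted p = 0.426 in limma over all probe sets).

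Within a pool, the log2 difference of the second Sfrp1 probe set from the brightest was -3.91 to -3.16 in those 3 homozygous pools and -0.48 to -0.15 in the other 7 pools. Of 23 dimmer member probe sets above the floor on all arrays, this one had the widest range of within-pool difference, 3.76, against a next widest of 2.80 (Dkk3) and a median of 1.66. The 3 pools share neither a high Xist level nor a high actin ratio. The other probe sets of Sfrp1 differed by -0.28, 0.48 and 0.70, so the gene had no single direction. This pattern was noticed after the values were seen, and its cause was not tested.

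**Figure D4:**
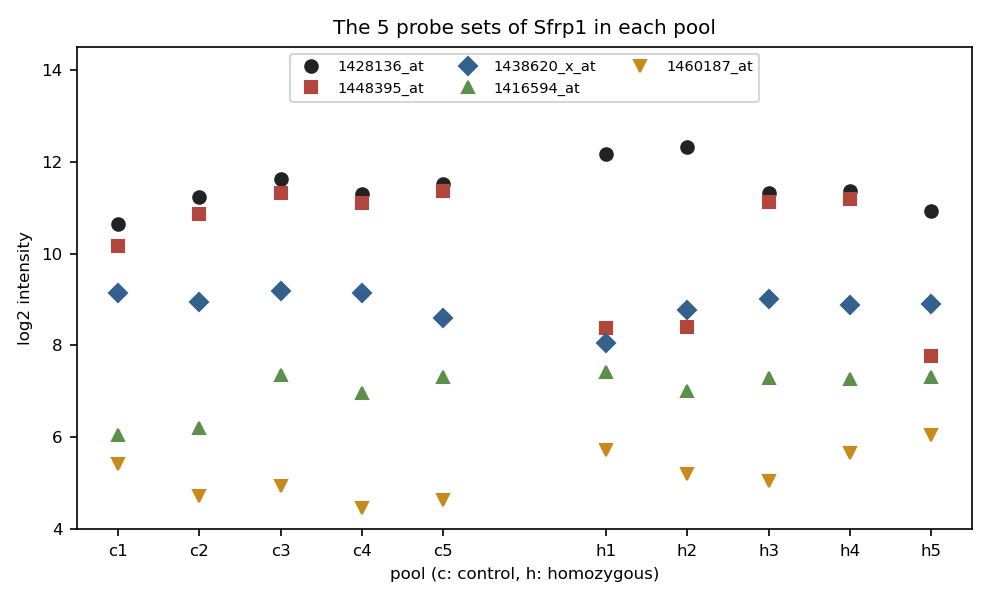
Log2 intensity of the 5 probe sets of Sfrp1 (symbols) in the 5 control (c1 to c5) and 5 homozygous (h1 to h5) pools. The probe set drawn in red lies close under the brightest one in 7 pools and far under it (-3.91 to -3.16) in homozygous pools 1, 2 and 5.

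Dkk2 and Dkk3, of the Dickkopf family, had differences of 0.17 ± 0.23 and 0.39 ± 0.40. A second Dkk3 probe set, above the floor on all arrays, differed by 0.83 ± 0.36 (unadjusted p = 0.0448, adjusted p = 0.391 in limma over all probe sets). Frzb, a ligand-binding inhibitor related to the Sfrp proteins, had -0.25 ± 0.29. Sfrp5 was at 0.05 ± 0.32. Wif1 touched the floor on 1 array (-0.49 ± 0.47), and Dkk4 was at or under it on 7 arrays.

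The R-spondins and their receptors included Lgr4, the member whose difference was most precise among those at an unadjusted p under 0.05. Lgr4 (chromosome 2, 109917647 to 110014257) encodes an R-spondin receptor of epithelial and progenitor cells. Homozygous pools 1 to 5 had intensities of 5561, 6928, 4912, 6790 and 5591, and control pools 1 to 5 had 7351, 8110, 8737, 7443 and 8038. Every homozygous pool was below every control pool. The mean was 12.53 ± 0.21 (SD, n = 5) against 12.95 ± 0.10 on the log2 scale, a difference of -0.42 ± 0.10 (SE; 95% interval -0.66 to -0.19; control mean 1.34-fold higher). It did not pass in limma (adjusted p = 0.0873), and its second probe set was at the floor on 9 of 10 arrays. With array weights the difference was -0.42 and passed (adjusted p = 0.0487), within a range of 0.0487 to 0.44 over 24 alternatives.

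Lists of kidney epithelium were lower in the same pools. The mean of 11 ureteric bud genes was 8.76 to 9.22 (log2) in homozygous and 9.53 to 9.62 in control pools, and that of 10 proximal tubule genes was 7.97 to 8.55 and 9.19 to 9.73. As with Lgr4, neither list overlapped between the groups. Of the ureteric genes none passed the threshold, and of the proximal tubule genes 7 fell. The summed intensity of the ureteric list ran from 11145 to 32330 and from 16987 to 30555, and that of the proximal tubule list from 2971 to 4474 and from 7294 to 10992. Whether these tissues account for part of the Lgr4 difference was not tested.

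Lgr6, an R-spondin receptor of the same family, was at 138, 41.9, 117, 72.9 and 163 in homozygous pools and at 41.6, 72.0, 37.4, 33.3 and 51.1 in control pools. Homozygous pool 2 lay within the control range and control pool 2 at the level of homozygous pool 4, and in the smooth muscle list, too, pool 2 was the lowest homozygous and the highest control pool. The rest of the order was not shared: homozygous pool 5 was highest in Lgr6, but its smooth muscle mean (9.75) was above only pool 2 in its group. Control pool 2 was also the highest control in the sympathetic neuron (8.66), Schwann cell (8.43) and urothelium (9.36) lists. The part of any of these tissues in the Lgr6 difference was not tested. The log2 difference was 1.08 ± 0.39 (2.11-fold; adjusted p = 0.215, limma), and a dimmer probe set differed by 0.06 ± 0.26. Lgr5, the stem cell marker of the family, had 136 to 188 in homozygous and 76.8 to 281 in control pools, a difference of -0.25 ± 0.35. Without control pool 1, the lowest of its group, the Lgr5 difference was -0.60.

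Of the R-spondins, Rspo3 was at 715, 1144, 830, 847 and 943 in homozygous and at 495, 1242, 718, 532 and 631 in control pools, a difference of 0.37 ± 0.25. Rspo1, needed for ovary formation, ran from 503 to 997 and from 507 to 1107, a difference of -0.32 ± 0.26. Rspo2 had the widest interval in the class and was singled out after its values were seen. Its intensity was 164, 156, 314, 441 and 377 in homozygous pools and 15.6, 342, 37.7, 251 and 280 in control pools. Only control pools 1 and 3 were low, and these also had the lowest mean of the 10 skeletal muscle genes (5.69 and 5.89, against 8.53 to 11.81 in the other 8 pools). They were likewise lowest of all pools in the 13 sympathetic neuron genes (5.99 and 6.31) and the 6 Schwann cell and satellite glia genes (6.68 and 6.20). In the homozygous pools the order of muscle was not shared, as pool 5 had the lowest muscle mean of its group. The Rspo2 difference was 1.30 ± 0.90, with an interval of -0.72 to 3.33, and the part of muscle, sympathetic tissue or glia in it was not tested. A dimmer Rspo2 probe set that touched the floor differed by 0.13 ± 0.55, and its lowest control was pool 4 (14.9). Rspo4 was at or under the floor on 9 arrays.

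For ligand secretion, Porcn was at 297, 183, 219, 316 and 120 in homozygous and at 147, 223, 177, 203 and 208 in control pools, a difference of 0.18 ± 0.27. Wls was at 2377, 2513, 2019, 2553 and 2227 in homozygous and at 2161, 2934, 2718, 2460 and 2481 in control pools. Its difference of -0.12 ± 0.095 had the narrowest interval among the members above the floor on all arrays (-0.34 to 0.09). Both intervals excluded a 2-fold change.

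Over the 36 members above the floor on all arrays, the half-width of the 95% interval ran from 0.21 to 1.21 with a median of 0.54. For the brightest probe set of each, the interval excluded a 2-fold change either way for 26 of the 36. The 10 for which it did not were Wnt5b, Wnt6, Wnt8b, Wnt9a, Fzd9, Sfrp1, Sfrp4, Dkk3, Lgr5 and Lgr6.

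Fitted probe set by probe set over the whole array, 0 of the 94 member probe sets passed in limma, against 0.231% of all 45037 (0.111% higher and 0.12% lower). At an unadjusted p under 0.05 there were 13, 6 higher and 7 lower, against 7.38% and 4.95% of all probe sets (12.3% together). The groups did not overlap in 2, against 3.29% of all, 1.78% higher and 1.51% lower. Of the 23 members with at least 2 probe sets above the floor on 5 or more arrays, the probe sets differed in sign for 12 and shared a sign for 11.

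Of 66 further genes of the pathway, in 4 lists, 64 were measured and 1 passed, Dkk1, a secreted Lrp inhibitor and target of beta-catenin signalling. Dkk1 fell by 1.63 on the log2 scale (adjusted p = 0.0222 in limma), from 9.91 to 8.28. It was the only one of 21 other extracellular and membrane regulators past the threshold. Rnf43, a ligase that removes Frizzled receptors from the membrane and is counteracted by R-spondins, was singled out after its values were seen and differed by -0.68 ± 0.19 (adjusted p = 0.113, limma). Among the 5 other ligands none passed, and Wnt11 (-0.63) and Wnt4 (-0.39) had the smallest p. None of 21 genes of Dishevelled and the beta-catenin destruction complex passed, with Apc2 at 1.47 (adjusted p = 0.0694) and Frat1 at 0.81. None of 17 nuclear effectors passed, with Tnik at 1.37 and Bcl9 at -0.47. Median differences of the 4 lists, in the order given, were -0.086, -0.23, 0.08 and -0.13.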

How the data were processed

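Gene expression was measured by Affymetrix array in 5 homozygous and 5 control RNA pools; groups and pool numbers follow the sample titles. The authors deposited linear intensities, 1 for each probe set on each array, scaled so that the mean without the highest and lowest 2% is 500 on each array. This was tested on the values; how probes were summarized, and with which software, is not given in the sources used here. Such scaling cannot show a change in total RNA.

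Intensities were floored at 16 and taken to log2 for this work. Of 45101 probe sets, 64 controls were left out; 34945 carry 1 gene symbol in the platform annotation, 932 several and 9160 none. The brightest probe set stood for each of 18193 genes. The test was limma 3.58.1 under R 4.3.3 (two-sided, lmFit and eBayes, with an intensity trend) without a block, with Benjamini-Hochberg adjustment over all genes, and the method was tested on simulated data. The number of arrays limits the precision.

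Every member is accounted for. Values on every array are given, per role, for the 2 members of smallest p and the 2 of highest mean, and for others said to be singled out. The members, lists and tests were chosen with earlier results of these data known. Coordinates and promoter sequences are RefSeq's for GRCm38.p6.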

Additional observations from a re-analysis of the deposited data

Results flagged for a closer look

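In 13 groups of 5 pools, 1 pool stood apart from the other 4 by Dixon's test at the 95% level. Of the 75 groups with no pool at the floor these were 6, where chance alone gives about 1 in 20; for groups at the floor that rate does not hold. All values here are log2 intensities. Homozygous pool 5 was lowest in Fzd4 (9.86, others 10.40 to 10.60) and highest in Kremen1 (9.65, others 8.78 to 8.93). Control pool 1 was highest in Fzd7 (12.12, others 11.66 to 11.77) and Lrp6 (12.03, others 11.42 to 11.54) and lowest in Lgr5 (6.26, others 7.82 to 8.13). These are the 2 arrays of high actin ratio, of which only control pool 1 also stood apart in the Gapdh ratio. The part of RNA integrity in these values was not tested. Control pool 2 was highest in Fzd6 (9.91, others 9.73 to 9.77).

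The other 7 cases lie near the floor, and in 5 of them all 4 other pools were at it, so that any value above it stands apart. They were Wnt1 (4.05) and Wnt3 (4.31) in control pool 1, Wnt2b (4.85) in control pool 2, Wnt10b (4.39) in homozygous pool 2, Dkk4 in control pool 4 (4.02) and homozygous pool 5 (4.49), and Rspo4 (4.44) in control pool 5.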

How the results depend on the processing

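The count of 0 members past the threshold became 1 with 16 added in place of the floor, with genes at the floor on 6 or more arrays left out and with median centring, each time Wnt2, and 2 with array weights (Wnt2 and Lgr4). Leaving out each pool in turn gave 0 to 1, the 1 being Wnt2 without control pool 2. It was 0 under the other alternatives. With pools left out singly, 4 to 9 members had an unadjusted p under 0.05, the 9 being without control pool 2.

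Of all genes, 109 passed with the mean of probe sets, 94 with a floor of 32, 302 with 16 added, 283 without the dimmest 40% and 366 without genes at the floor on 6 or more arrays. With array weights 951 passed, 104 by probe set, 28 when the 3 Xist-high pools were dropped, 23 when both arrays of high actin ratio were, and 3 to 414 without single pools. With the replicate number as a block 1 gene and 0 members passed. Deviations of same-numbered pools from their group means had correlations of -0.55 to -0.17, against -0.38 to 0.55 for pools of different number. The labels name no pairing, and whether the numbers carry a shared batch or litter was not tested.

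Differences of 25 members kept their sign in all alternatives run, those of 5 (Wnt3, Wnt8a, Wnt10b, Wnt16 and Rspo4) were 0 in some, and those of 18 changed sign in 1 or more. With the mean of probe sets these were Fzd2 (0.039), Fzd5 (-0.031), Fzd6 (0.088), Ror2 (-0.22), Sfrp1 (-0.067), Sfrp5 (-0.20), Lgr5 (0.013) and Wls (0.011). With quantile normalization they were Wnt7a (-0.012), Fzd1 (-0.032) and Sfrp5 (-0.033), with median centring Wnt1 (0.035) and Lrp5 (0.041), with 16 added Wnt1 (0.032), and with array weights Fzd2 (0.007). Without both arrays of high actin ratio they were Wnt10a (-0.097), Fzd1 (-0.064) and Fzd5 (-0.005). Without the 3 Xist-high pools they were Wnt3a (-0.32), Wnt10a (-0.15), Fzd1 (-0.23), Fzd8 (0.081), Lrp5 (0.39) and Dkk4 (-0.004). Without single pools the differences ran from -0.11 to 0.15 for Wnt7a, -0.14 to 0.38 for Wnt10a, -0.11 to 0.095 for Fzd1, -0.066 to 0.14 for Fzd5, -0.21 to 0.38 for Fzd9, -0.20 to 0.14 for Lrp5, -0.21 to 0.001 for Lrp6, -0.15 to 0.096 for Ror2 and -0.16 to 0.22 for Sfrp5. The cause was not tested. Signal near the floor limits what can be said of the 12 members that touched it.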

Other observations

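Probe sets of 1 gene parted on the 2 arrays of high actin ratio in several members. The log2 difference of a dimmer probe set from the brightest was lowest in homozygous pool 5 for Kremen1 (-3.56). For Ror2 it was lowest in control pool 1 (-0.88), and for some other members it was lowest on other arrays. Dkk3 and Ryk are described here, both noticed after the values were seen. The dimmer of the 2 Dkk3 probe sets was brighter than the other in homozygous pool 5 (408 against 203) and control pool 1 (189 against 147) alone; in the other 8 pools it was the dimmer. A second probe set of Ryk was at 119 in homozygous pool 5 and 214 in control pool 1, the lowest pool of each group, and at 311 to 762 in the other 8 pools.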
